A study of Mus musculus with 4 samples.

Results

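Olfr828 to Olfr986 are odorant receptor genes of mouse chromosome 9, and their expression was compared between young adult and aged nasal mucosa. The members were the genes whose array probes carry an accession that maps to a symbol from Olfr828 to Olfr986, a whole number with nothing after it. There were 108 of them, measured by 110 probes, among 1080 receptor genes and 45616 genes on the array. An accession that mapped to no symbol was counted as a gene of its own, and the shares of all genes given below include these. The 2 symbols of this range with a suffix after the number, Olfr911-ps1 and Olfr947-ps1, were left out. The other 970 receptors served for comparison, and among them symbols with a suffix, such as Olfr1372-ps1, were kept. RNA came from the septal nasal mucosa, as the protocol label gives it, of male C57BL/6J mice at 8 weeks (young adult) or 16 months (aged) of age. The strain is from its label and the sex from the methods, and no engineered allele is named. Sample titles and the tissue label name olfactory epithelium instead. For the arrays the methods speak of nasal mucosa, and they do not give the substrain. The description of every sample speaks of lung cells after silica, and the tag that holds the age is named for silica too, which the other labels and the study do not mention. Each of the 4 arrays, 2 per age, carried RNA pooled from 5 mice. Fewer mice per age are given for gene analyses than separate pools would need, so the pools of one age may share animals, and P values measure only the spread between these arrays.

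An odorant receptor is a membrane protein in the cilia of olfactory receptor neurons (ORNs) that couples, through the G protein subunit encoded by Gnal, to adenylyl cyclase 3 and a cyclic nucleotide-gated channel. A mature ORN expresses a single receptor gene from a single allele, so that the level of a receptor in whole mucosa reflects both how many neurons chose it and how much RNA each of them holds. Fewer such neurons and less RNA per neuron cannot be told apart on these arrays. Receptor genes lie in clusters and resemble each other in sequence, and whether a probe also binds RNA of a close relative cannot be read from the arrays.

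The mucosa carried RNA of the cells that use these genes. All 12 markers of mature ORNs, Omp, Gnal and Adcy3 among them, were well above background on all 4 arrays. Young adult array 1 and aged array 1 were hybridised on the same slide, and each of the other arrays lay on a slide of its own. The slide with both ages had the higher local background, with a median of 67 and 63 against 32 and 39 intensity units. Fewer members were well above background on it. They numbered 52 (48.1%) on young adult array 1 and 44 (40.7%) on aged array 1, against 78 (72.2%) on young adult array 2 and 69 (63.9%) on aged array 2. The other receptors stood at 50%, 43.2%, 72.6% and 68.5% on the same arrays in the same order. No spot was saturated.

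The sequence upstream of 5 called members is shown because Olfr920 and Olfr921 are neighbours that were both higher in the aged pools, Olfr912 had the largest rise among the brighter members, and Olfr957 and Olfr959 were lower. The sequences are RefSeq promoters of GRCm38.p6, 250 bases before and 50 after the annotated gene start, written 5′ to 3′ along the gene. Olfr912 lies on the plus strand at chr9:38579994-38580293. Olfr920 and Olfr921 lie on the same strand at chr9:38752546-38752845 and chr9:38772838-38773137. Olfr957 and Olfr959 lie on the minus strand at chr9:39511669-39511968 and chr9:39573208-39573507. Capitals mark the homeodomain motif TAATGA, on either strand, and the TATA box TATAAA.
Olfr912: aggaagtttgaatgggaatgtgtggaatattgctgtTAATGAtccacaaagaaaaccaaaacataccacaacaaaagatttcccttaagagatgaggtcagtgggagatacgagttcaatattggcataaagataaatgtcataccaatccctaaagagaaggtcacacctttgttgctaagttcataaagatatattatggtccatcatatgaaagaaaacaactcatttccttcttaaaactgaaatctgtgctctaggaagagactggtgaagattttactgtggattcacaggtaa
Olfr920: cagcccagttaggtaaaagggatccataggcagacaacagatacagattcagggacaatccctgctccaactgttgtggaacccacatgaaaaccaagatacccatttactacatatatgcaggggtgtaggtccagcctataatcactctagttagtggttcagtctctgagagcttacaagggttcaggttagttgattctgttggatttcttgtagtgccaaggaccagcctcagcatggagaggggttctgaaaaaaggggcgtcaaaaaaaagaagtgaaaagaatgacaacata
Olfr921: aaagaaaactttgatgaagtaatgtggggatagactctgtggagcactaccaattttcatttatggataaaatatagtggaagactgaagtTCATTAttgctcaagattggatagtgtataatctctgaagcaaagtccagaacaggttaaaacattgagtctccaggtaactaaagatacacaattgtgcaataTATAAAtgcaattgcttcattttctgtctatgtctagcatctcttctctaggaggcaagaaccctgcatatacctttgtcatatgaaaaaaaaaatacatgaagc
Olfr957: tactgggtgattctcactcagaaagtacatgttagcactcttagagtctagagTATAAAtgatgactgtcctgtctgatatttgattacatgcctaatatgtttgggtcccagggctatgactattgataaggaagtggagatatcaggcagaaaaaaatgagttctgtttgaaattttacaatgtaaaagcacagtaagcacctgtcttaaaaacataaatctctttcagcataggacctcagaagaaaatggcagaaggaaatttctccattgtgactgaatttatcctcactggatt
Olfr959: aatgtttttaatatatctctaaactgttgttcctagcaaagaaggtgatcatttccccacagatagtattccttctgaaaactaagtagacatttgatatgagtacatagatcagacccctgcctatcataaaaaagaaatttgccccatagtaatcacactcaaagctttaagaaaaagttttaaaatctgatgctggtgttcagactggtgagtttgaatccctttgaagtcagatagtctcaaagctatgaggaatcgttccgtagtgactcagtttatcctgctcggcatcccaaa

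A promoter was on hand for 94 of the 108 members (95 promoters) and for 7 of the 8 called members, with Olfr923 the one without. In 63 promoters (66.3%) the annotated start is itself an ATG, so that these windows lie before a coding start and not necessarily before the start of transcription. TATAAA was held by 47.4% of the member promoters, 40% of the 825 promoters of other receptors and 13.6% of all 32851 promoters of the same length, counting both strands. TAATTA, which reads the same on both strands and can share bases with TAATGA, was held by 24.2%, 17.6% and 5.29%. TAATGA was held by 25.3%, 29.2% and 9.78%. The site of the EBF (O/E) factors that act in ORNs, searched as a palindrome of CCCNNGGG with T before and A after it, was in 0% of the member promoters, 0.606% of the others and 0.904% of all, and the looser CCCNNGGG that it contains was in 1.05%, 3.27% and 13.7%. Among the called members Olfr912 held TAATGA, Olfr921 held TAATGA and TATAAA, Olfr957 held TATAAA, and Olfr881, Olfr920, Olfr959 and Olfr974 held none of these motifs. These matches describe letters in a window and say nothing of binding.

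The members did not move one way with age. Their median difference, aged minus young adult, was 0.0034 on the log2 scale, with the middle of the members between −0.26 and 0.25 (quartiles) and the extremes at −1.26 and 1.24. By sign 54 were higher and 54 lower. At P under 0.05 and a false discovery rate (FDR) under 0.25 in limma, adjusted over all genes, 4 members rose and 4 fell (3.7% each way), where 1.65% of all genes were called higher and 2.33% lower (3.98% either way). The median over all genes was 0.01. Among the members called, 3 rises and 2 falls also had a mean intensity of at least 100 and a change of at least 1.5-fold, limits passed by 0.813% of all genes upwards and 1.15% downwards.

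The other receptors had a higher median, 0.12 over 970 genes, of which 571 (58.9%) were higher by sign. Of the 970 receptors 114 (11.8%) were called higher and 36 (3.71%) lower. The difference between the medians, Olfr828 to Olfr986 minus the other receptors, was −0.12. On the single arrays the median member stood at 5.93 and 6.00 in young adult and 5.91 and 5.94 in aged mucosa (log2 intensity), and the ages overlapped. The median of the other receptors stood at 5.98 and 6.04 in young adult and 6.09 and 6.15 in aged mucosa, and here the ages did not overlap. Within the slide that held both ages the median difference was −0.105 for the members and 0.09 for the other receptors, and between the other arrays it was 0.06 and 0.12. Receptors share arrays and related sequence, so these medians are descriptions without a test.

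**Figure D1:**
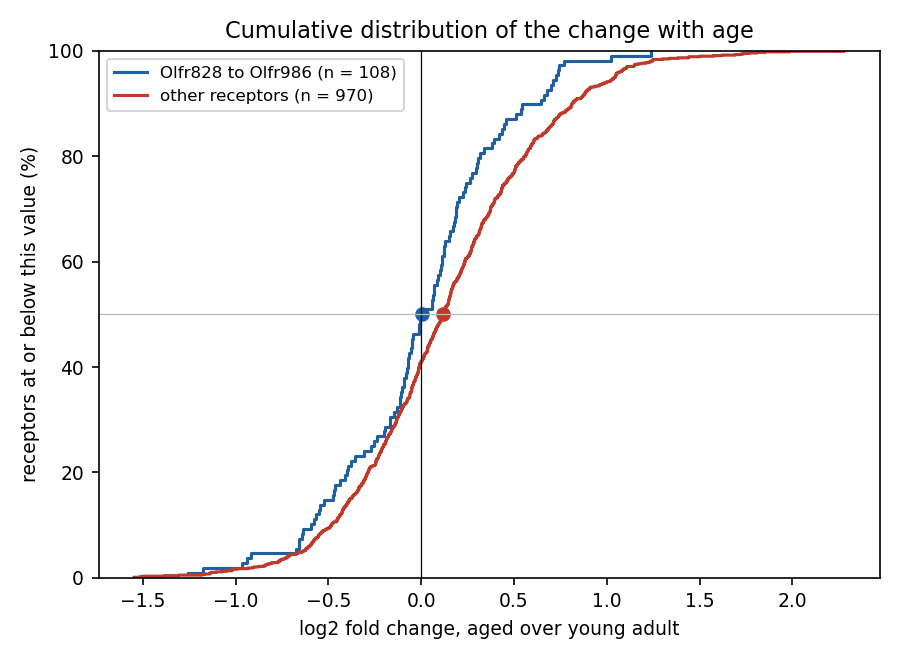
Cumulative share of receptors (y axis, percent) at or below a given log2 difference, aged over young adult (x axis), for the 108 members and the 970 other receptors; dots mark the medians. The curve of the members lies to the left in its upper part, with a median of 0.0034 against 0.119.

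Chromosome 9 holds 21 further receptors with other numbers, and their median was −0.13, with 0 called higher and 2 lower. All 131 receptors of the chromosome had a median of −0.01. It was the second lowest among the 12 chromosomes with at least 20 receptors, between chromosome 7 (−0.11, 233 receptors) and chromosome 6 (0.07, 27 receptors), and the highest was that of chromosome 16 (0.37, 35 receptors). The 949 receptors of all other chromosomes had a median of 0.12.

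Olfr912, a receptor known to respond to a thiazoline odorant of male mouse urine, had the lowest FDR of the members. Its normalized intensity was 328 and 322 in young adult and 675 and 645 in aged mucosa. Both aged pools were thus well above both young adult pools, by 1.02 ± 0.08 on the log2 scale (SE; 2.03-fold, limma FDR = 0.178). The difference was 1.04 within the slide with both ages and as much, 1.001, between the other arrays. Its 95% interval ran from 0.79 to 1.26.

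Olfr920 read 204 and 203 in young adult and 324 and 326 in aged mucosa. The arrays of each age were nearly equal and the ages did not overlap, with a rise of 0.68 ± 0.07 (1.6-fold, limma FDR = 0.187). Its neighbour Olfr921 read 43.2 and 54.1 in young adult and 111 and 117 in aged mucosa. It rose by 1.24 ± 0.15 (2.36-fold, limma FDR = 0.193), but the mean intensity of 81.4 was under the expression limit and only 1 of the young adult arrays was above background. This was the largest rise of the set as processed here, and it was smaller than that of Olfr912 with a background offset of 50 (0.735 against 0.92) and without background correction (0.941 against 0.949). Olfr974 read 102 and 119 in young adult and 167 and 177 in aged mucosa, again without overlap, a rise of 0.64 ± 0.11 (1.56-fold, limma FDR = 0.24).

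Olfr959 read 138 and 148 in young adult and 71.4 and 77.7 in aged mucosa. Both aged arrays were lower, by −0.94 ± 0.09 (log2; limma FDR = 0.185), and the probe was above background on 1 of the aged arrays. Olfr957, which lies close to Olfr959, read 259 and 275 in young adult and 158 and 181 in aged mucosa. It fell by 0.66 ± 0.11 (limma FDR = 0.229), with no overlap between ages. Olfr958, which lies between Olfr957 and Olfr959, differed the other way, by 0.38 ± 0.10, and was not called (limma FDR = 0.307). Olfr881 read 82.8 and 78.4 in young adult and 33.2 and 38.3 in aged mucosa. It was not well above background on either aged array. Taking on each aged array the higher of the probe's own signal and the lowest detected signal, it was at least 2.26-fold lower (limma FDR = 0.183). The probe's own signal was the higher, so this equals the measured difference and holds for this background correction alone, the log2 difference being −0.604 with a background offset of 50 and −0.785 without correction. Olfr923, known to respond to acetophenone, read 232 and 234 in young adult and 168 and 150 in aged mucosa. It fell by 0.55 ± 0.10 (limma FDR = 0.238), which is 1.47-fold and short of the fold limit.

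**Figure D2:**
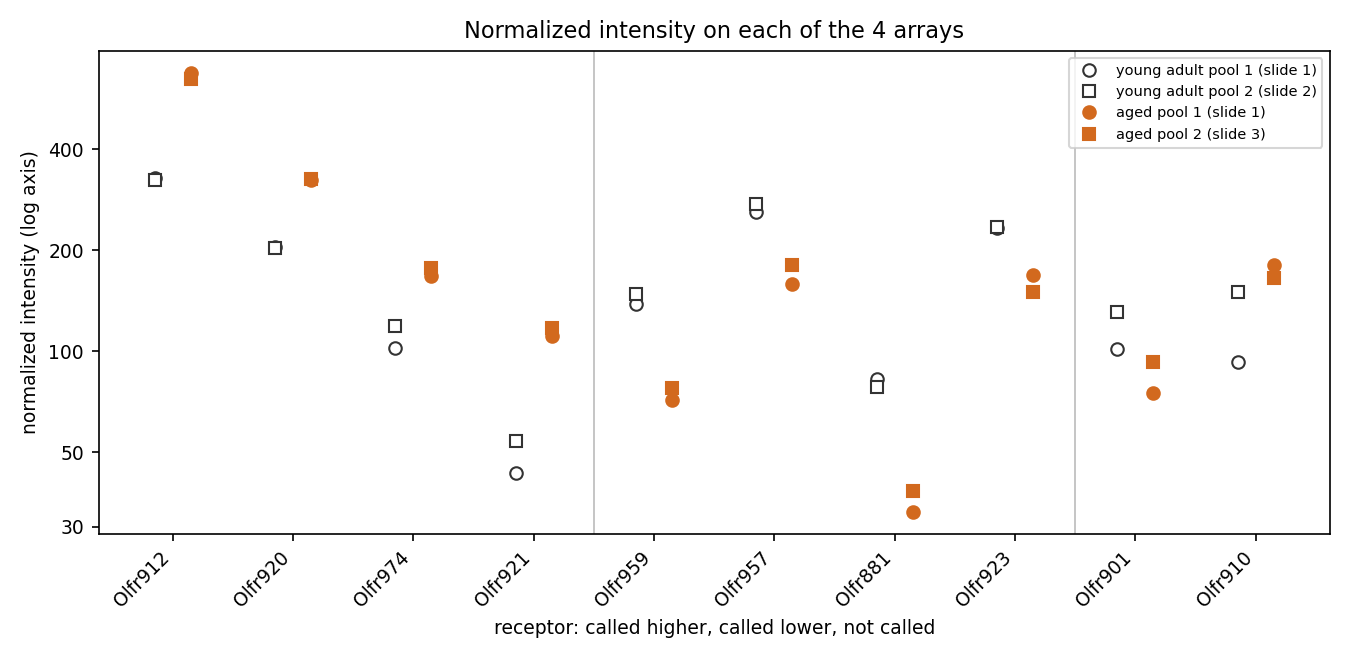
Normalized intensity (log axis) of the 8 called receptors and of 2 receptors with a known ligand on each of the 4 arrays; open symbols are young adult pools and filled symbols aged pools, and circles mark the slide that held both ages. In each called receptor both arrays of one age lie above both of the other, which a call on these same arrays favours. Olfr912, for one, had 328 and 322 against 675 and 645.

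The receptors with a known ligand did not share a direction. Besides Olfr912 and Olfr923, these were Olfr910, which responds to the same urinary odorant as Olfr912, and Olfr901, which responds to acetophenone as Olfr923 does. Olfr910 read 92.9 and 150 in young adult and 180 and 165 in aged mucosa. The ages did not overlap, but the young adult arrays lay far apart, and the difference of 0.54 ± 0.28 was not called (limma FDR = 0.523). Olfr901 read 101 and 131 in young adult and 75.03 and 92.6 in aged mucosa. Its difference of −0.47 ± 0.198 was not called either (limma FDR = 0.455).

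All 8 calls rest on limma's moderated SEs. These weigh a gene's own spread, with 2 residual degrees of freedom, with the spread shared across genes, with 1.38 prior degrees of freedom. An exact permutation of 2 arrays against 2 cannot give a P below 0.333 for a single gene. No gene on the array reached an FDR below 0.0946. With the replicate number as a block, 0 members were called, the lowest FDR of a member was 0.433, and no other gene was called either. With any array left out, an age is left with a single array, and no gene, member or not, was called. The 8 called members kept their sign in all of these fits. At an unadjusted P under 0.05 the full set of arrays gave 11 members higher and 10 lower, against 6.05% and 7.09% of all genes (13.1% either way).

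The receptors keep to stretches of the chromosome that no other protein-coding gene interrupts in the RefSeq table, and the calls lay in 3 of the 6 stretches. The first stretch, between the mucin gene Muc16 and the zinc-finger gene Zfp317, holds 18 members from Olfr828 to Olfr855, with a median of 0.09 and no call. Most of these were dim. Only 3 had a mean intensity of at least 100, among them Olfr850 with 585 and 644 in young adult and 565 and 585 in aged mucosa. Olfr855, the last gene of the stretch, read 158 and 152 in young adult and 203 and 224 in aged mucosa. Its ages did not overlap, but the difference of 0.46 ± 0.09 was just outside the limit (limma FDR = 0.264).

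The second stretch, between Zfp317 and Zfp560, holds 12 members from Olfr857 to Olfr873 and had a median of 0.08 without a call. Olfr871, the brighter of its 2 members with a mean of at least 100, read 2091 and 2312 in young adult and 2052 and 2075 in aged mucosa. The difference was −0.09 with a 95% interval from −0.37 to 0.18, which leaves out a change of 1.5-fold. Olfr870 read 147 and 183 in young adult and 74.03 and 102 in aged mucosa. The aged arrays were both lower by −0.92 ± 0.23, but the arrays of one age differed enough to leave it uncalled (limma FDR = 0.303).

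The third stretch runs from Olfr874 to Olfr919 between the pannexin gene Panx3 and Vwa5a. Its 32 members had a median of −0.01, with Olfr912 called higher and Olfr881 lower. Its first 9 members, Olfr874 to Olfr885, all had a negative sign, the longest run of same-signed neighbours among the members, noticed after the values were known. In Olfr874 the arrays read 255 and 277 in young adult and 194 and 207 in aged mucosa, a difference of −0.41 ± 0.09 that was not called (limma FDR = 0.282). At the far end Olfr918 read 665 and 682 in young adult and 733 and 784 in aged mucosa, again without overlap and without a call (0.17 ± 0.08, limma FDR = 0.508).

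The fourth stretch, from Olfr920 to Olfr959 between Vwa5a and AW551984, held 5 of the 8 calls among its 24 members and had a median of −0.06. There 2 were called higher (8.33%) and 3 lower (12.5%), where 1.65% and 2.33% of all genes were. Members with a mean intensity of at least 100 numbered 3, 2, 9, 14 and 13 in stretches 1 to 5. The median SEs were 0.277, 0.329, 0.16, 0.107 and 0.121, and a link to the calls was not tested. The fifth runs from Olfr960 to Olfr985 between AW551984 and Tmem225 and had a median of 0.06 over 21 members, with Olfr974 its one call. Olfr971, close to Olfr974, read 117 and 141 in young adult and 84.02 and 80.7 in aged mucosa. It was the member nearest outside the FDR limit, with a difference of −0.65 ± 0.13 (limma FDR = 0.258), opposite in sign to Olfr974. Olfr986 stands alone between Tmem225 and Zfp202 and read 11.7 and 24.7 in young adult and 15.6 and 21.4 in aged mucosa and was not well above background on any array.

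**Figure D3:**
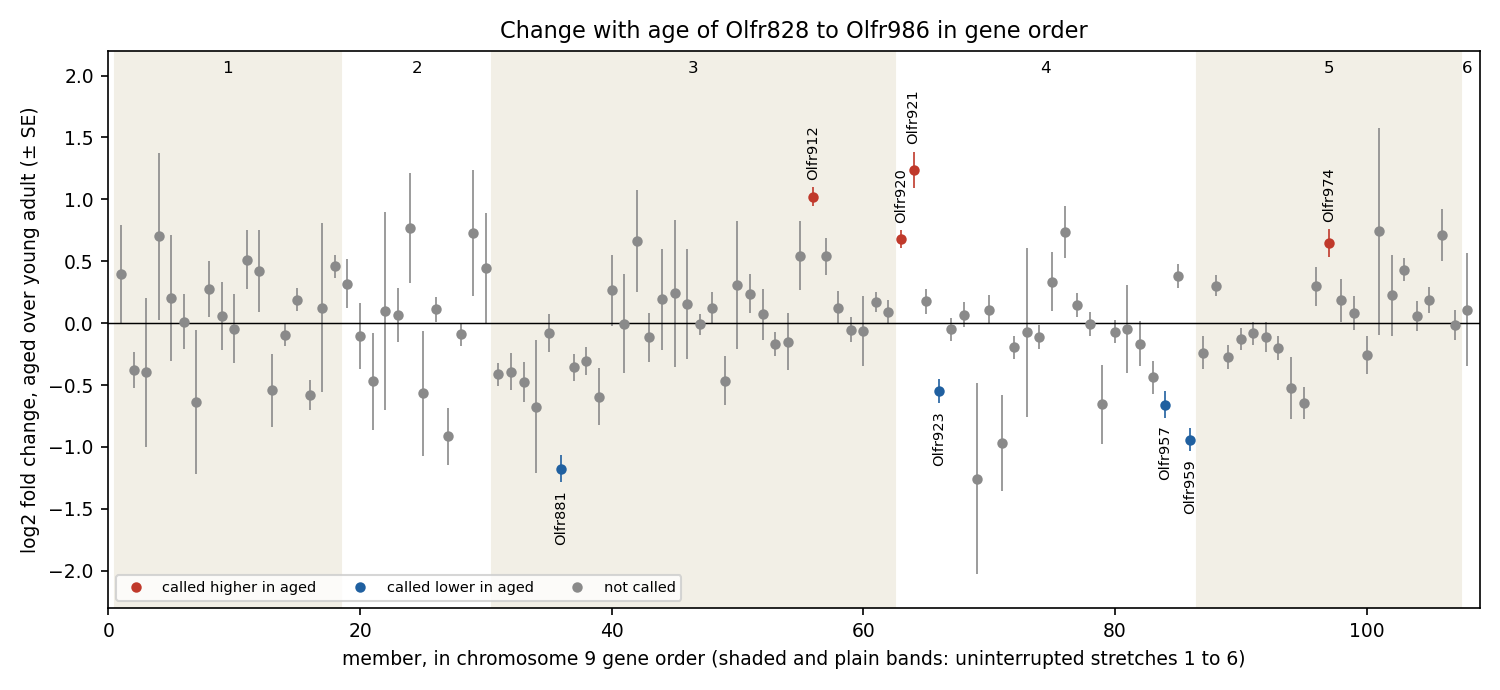
Log2 difference, aged over young adult, of each of the 108 members (points) with its SE (bars) in the order of the genes on chromosome 9; bands 1 to 6 are the uninterrupted stretches. Called members, 4 higher and 4 lower, lie in bands 3, 4 and 5, with uncalled members of both signs around them.

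Neighbours here are members that follow each other in gene order, and receptor genes that are not members can lie between them. The third stretch, for one, has 51 receptor genes in the RefSeq table and 32 members. Of 102 neighbouring pairs 58 (56.9%) had the same sign and 44 the opposite, and the differences of neighbours correlated with r = 0.161 (rho = 0.167) over pairs that share arrays. The longest run of neighbours called in the same direction was Olfr920 and Olfr921. Olfr923, the next member but one after Olfr921, was called in the opposite direction.

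For 31 of the 108 members the 95% interval lay within a change of 1.5-fold either way, and 21 of those had a mean intensity of at least 100. For the other 77 it reached beyond 1.5-fold. Olfr965, the brightest probe among the members, read 4671 and 5099 in young adult and 4362 and 4571 in aged mucosa. Its difference was −0.13, with an interval from −0.403 to 0.15. Olfr945 read 668 and 749 in young adult and 706 and 702 in aged mucosa, so that the ages overlapped, and its difference was −0.01 with an interval from −0.299 to 0.28. Olfr969 read 1070 and 1026 in young adult and 964 and 862 in aged mucosa, an uncalled difference of −0.201 with an interval from −0.497 to 0.09.

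In Olfr930 and Olfr979, singled out after their values were seen, a single array set the value. Olfr930 read 105 and 400 in young adult and 72.02 and 102 in aged mucosa. Its difference of −1.26 was the lowest of all members, yet with an SE of 0.77 it was not called (limma FDR = 0.58). Olfr979 read 51.04 and 84.8 in young adult and 223 and 54.2 in aged mucosa. Its ages overlapped, and its difference was 2.13 within the slide with both ages and −0.65 between the other arrays. Olfr843 and Olfr937 have a pair of probes each. The probes of Olfr937 differed by −0.11 and −0.11, and those of Olfr843 by 0.197 and −0.0856, with overlapping ages for each probe.

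Signal over background limited much of the set. The probes of 40 members were well above background on all 4 arrays, those of 30 on none, and those of the rest on some. There were 41 members with a mean intensity of at least 100, with a median SE of 0.0993, and 67 below it, with a median SE of 0.23. The brighter members had a median difference of −0.04 with 3 called higher and 3 lower (7.32% each way). The dimmer ones had 0.06 with 1 called each way (1.49%). Among the other receptors the brighter 361 had a median of 0.15 with 79 (21.9%) called higher and 22 (6.09%) lower. The dimmer 609 had 0.11 with 35 (5.75%) and 14 (2.3%). Of all genes 1.65% were called higher and 2.33% lower, and these shares were not computed by brightness. In 9 members (8.33%) the probe was above background on a young adult array and on no aged array, and in 0 members the reverse, where the shares were 7.73% and 4.43% of the other receptors and 5.59% and 1.35% of all genes. Over all spots, detection was 68.1% and 76.8% in young adult and 63.1% and 72.7% in aged mucosa. Besides Olfr881 these 9 included Olfr849, Olfr876 and Olfr955, none of them called.

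**Figure D4:**
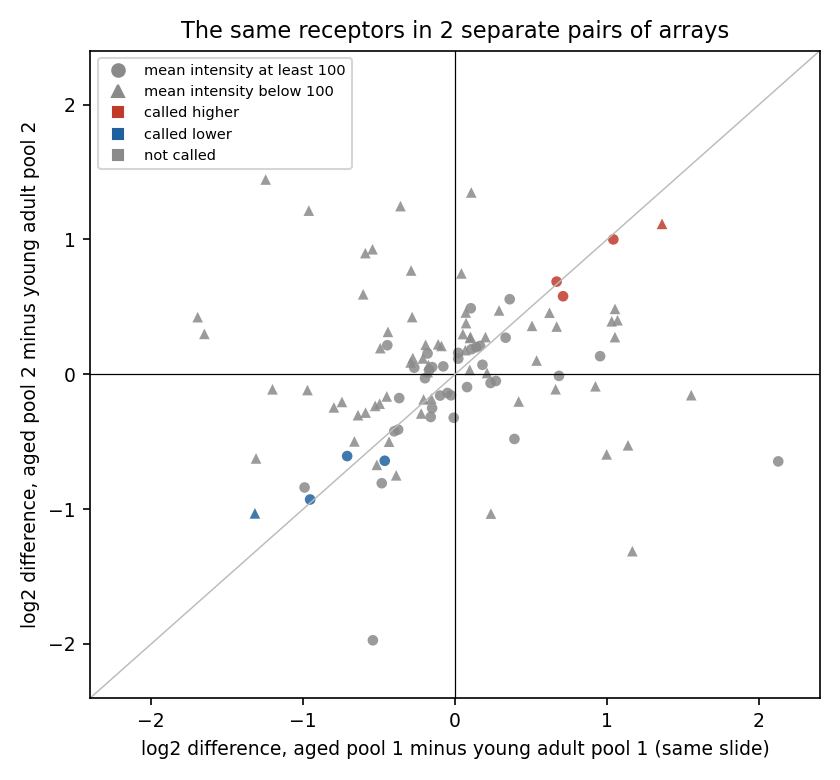
Log2 difference of each member between the ages on the slide with both (x axis) and between the other arrays (y axis); circles have a mean intensity of at least 100, triangles less, and the line marks equal values. The called members lie near the line, but a call on these same arrays favours a small spread within each age, so their place is no separate support. Many of the dim members lie far from the line or in the quadrants of opposite sign.

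The differences in the separate pairs of pools lay closer together for the brighter members. Across the 41 members with a mean of at least 100, the difference on the slide with both ages and that between the other arrays had the same sign in 29 (70.7%), with r = 0.459 and rho = 0.585 over genes, which are not independent replicates. Across the 67 dimmer members it was 39 (58.2%), with r = −0.014 and rho = 0.107. The members as a whole shared the sign in 68 of 108 (63%), the other receptors in 67.8% and all genes in 61.4%. On the arrays, 24 members had both aged values above both young adult values and 30 had both below, where 24.2% and 21.8% of all genes did.

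Genes that act with the receptors were measured alongside. Of 23 odorant signalling genes listed, 22 were measured, all above background on every array, and 1 was called higher and 0 lower, with a median difference of 0.13. The one called was the phosphodiesterase gene Pde4a (0.45, limma FDR = 0.249). Adcy3, the cyclase that receptors activate, read 5022 and 5068 in young adult and 6393 and 6222 in aged mucosa, a difference of 0.32 that was not called (limma FDR = 0.289). None of the 19 genes of receptor choice and trafficking was called, and their median was 0.06. Among these Lhx2, a homeodomain factor that receptor choice needs, differed by 0.08 (limma FDR = 0.686), and Rtp1 and Rtp2, which carry receptors to the cell surface, by 0.14 and 0.12 (limma FDR = 0.53 and 0.596).

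Some markers of the cell types in the mucosa were called as well. Of 12 markers of mature ORNs, Stoml3 was called higher (0.43, limma FDR = 0.243), the median was 0.27, and the summed intensity ran from 464400 to 476000 in young adult and from 521500 to 529100 in aged mucosa. Most of that sum was Omp. It read 300800 and 286100 in young adult and 317800 and 332600 in aged mucosa, a difference that was not called (0.15, limma FDR = 0.549). The paper's cell counts, a measure other than RNA of whole mucosa, gave fewer OMP-positive mature ORNs in aged mice. Of 8 markers of immature ORNs, Dpysl3 and Dbn1 were called lower (−0.397 and −0.42, limma FDR = 0.247 and 0.242), the median was −0.36, and the sum ran from 77270 to 78560 in young adult and from 62220 to 62610 in aged mucosa. Of 6 markers of basal and progenitor cells the keratin gene Krt5 was called lower (−0.49, limma FDR = 0.216), 4 were lower and 2 higher by sign, the median was −0.304, and the sum ran from 29290 to 29780 in young adult and from 23420 to 23990 in aged mucosa.

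Of 8 sustentacular markers Cyp1a2 was called higher (0.54, limma FDR = 0.209). By sign 6 were higher and 2 lower, with a median of 0.04 and a sum of 1064000 to 1069000 in young adult and 1102000 to 1103000 in aged mucosa. None of the 5 ciliated cell markers measured was called, their median was −0.03, and the sum was 29210 to 29690 in young adult and 27350 to 27540 in aged mucosa. None of the 6 vomeronasal markers measured was called. By sign 4 were lower and 2 higher, the median was −0.14, and the sum was 5468 to 5654 in young adult and 4392 to 4533 in aged mucosa, with H2-M10.1 not above background on any array. Most of that sum was Gnai2 (5027 and 3981 on average). The receptors Vmn1r1 and Vmn2r1, each above background on 1 young adult array and on no aged array, differed the other way, by 0.275 and 0.41. The part of these shifts in the values of Olfr828 to Olfr986 was not tested.

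Other ways of processing kept the order of the medians. The median of the members lay below that of the other receptors in each of the settings run, with a difference from −0.19 to −0.06, while the median of the members itself had either sign. Across settings other than leaving out an array, Olfr912 kept a rise of 0.92 to 1.03 and Olfr920 one of 0.57 to 0.72. The size was less settled for the dim probes, with Olfr921 between 0.735 and 1.87 and Olfr881 between −2.54 and −0.604.

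**Figure D5:**
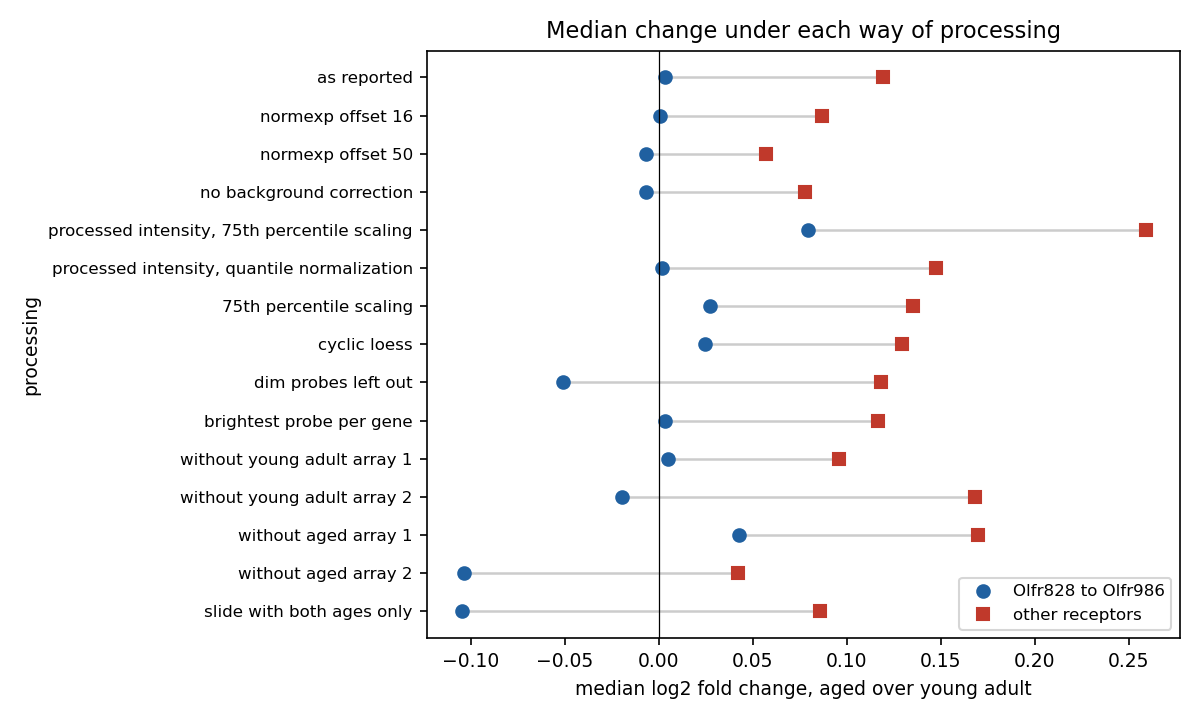
Median log2 difference, aged over young adult (x axis), of the members (circles) and of the other receptors (squares) under each way of processing (rows). The circle lies left of the square in each row, with the members on either side of 0.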

How the data were processed

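The authors labelled RNA of 4 pools, hybridised it to Agilent one-color arrays and extracted spots with Feature Extraction 11.0.1.1. They deposited spot intensities (median signal, local background and a processed intensity), not normalized between arrays; the deposited series table equalled the processed intensity at all 62976 spots of each array. The paper's methods name R 3.2.1, limma, quantile normalization, averaging over probes and the thresholds, and no background offset. Here limma 3.58.1 (R 4.3.3) subtracted background by its normexp model, fitted to all spots with offset 0, and control spots and outlier flags were left out (88 to 118 non-control spots per array). Log2 values were averaged over the spots of a probe, quantile normalized, and then averaged over the probes of a gene. The gene values were fitted with lmFit and eBayes without covariates over 45616 genes. The fit was tested on simulated data. A call needed P under 0.05 and FDR (Benjamini-Hochberg) under 0.25; SEs are limma's moderated ones. Symbols came from RefSeq (GRCm38.p6), which named 32994 of 56605 probes (58.3%); the array design uses another build, so only promoter coordinates are given.

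The members and lists were chosen with earlier results of these data known. Named were the called members (up to 10 each way), receptors with a known ligand and the longest run of called neighbours. Members whose probes had opposed changes of about 1.5-fold or more each would also have been named, and none qualified; protein identity was not used here. The other receptors named were chosen after their values were seen. Same-numbered arrays did not deviate together (correlation −0.078 over all genes), so replicate numbers do not pair them. Precision is limited by how few arrays there are and, where probes are dim, by their signal over background. Alternatives were other offsets, signals, normalizations, probe and flag rules, an intensity trend, a replicate block, 1 slide alone, suffixed symbols, other thresholds and each array left out.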

Additional observations from a re-analysis of the deposited data

How the results depend on the processing

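No call changed direction, while the median of the members, close to 0, took either sign. With the replicate number as a block, 0 members were called either way and 0 passed all limits, with fewer residual degrees of freedom. At an unadjusted P under 0.05 the block left 8 members higher and 13 lower. The share of all genes at that limit was not computed for the block, so these counts have nothing to be set against. At an FDR below 0.05, 0 members were called. Normexp offsets of 16 and 50 and no background correction gave 5, 6 and 6 members called higher and 7 each called lower, where 2.85%, 4.62% and 3.92% of all genes were called higher and 3.71%, 5.43% and 4.91% lower. The processed intensity with quantile normalization gave 8 higher and 9 lower, the intensity trend 7 and 9 with 4 past all limits downwards, and leaving out dim probes (56 members measured) 7 and 12, again with 4. The share of all genes past all limits was not computed for these settings, so the counts of 4 have nothing to be set against. The 8 called receptors remained called under these 6 settings. Leaving out dim probes kept those above background on both arrays of either age. Olfr881, Olfr921 and Olfr959 passed this filter only through the age where they were higher, so that setting is no support for them. Scaling to the 75th percentile and cyclic loess each lost Olfr923, and the processed intensity scaled to the 75th percentile lost Olfr921 and Olfr974. Calls over all genes, 754 higher and 1063 lower, became 3607 and 3517 (7.91% and 7.71%) with the trend, 3446 and 3707 of 29504 genes (11.7% and 12.6%) without dim probes, 2030 and 2346 (4.45% and 5.14%) with the processed, quantile-normalized intensity, and 0 and 0 with the block or any array left out.

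The median of the members, 0.0034, was 0.07956 with the processed intensity scaled to the 75th percentile (median of all genes then 0.066) and −0.105 on the slide with both ages alone, and ranged from −0.1038 to 0.04285 with an array left out, the lowest without aged array 2. The median of the other receptors was 0.2589 under that scaling and ranged from 0.04214 to 0.17. The difference between the medians was −0.08578 and −0.06363 with offsets of 16 and 50, −0.0847 without background correction, −0.1794 and −0.1453 with the processed intensity scaled or quantile normalized, −0.1689 without dim probes and −0.1908 on the slide alone, and ranged from −0.1882 to −0.09137 with an array left out. The cause was not tested. Slide as a random block could not be fitted with 4 arrays. Signal over background limits the members whose probes were above it on no array, 30 of 108, and those have no firm level.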
